A study of Rattus with 4 samples.

Results

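The genes of transforming growth factor beta (TGF-beta) signalling outside the cell and at its surface were examined in anti-NONO precipitates and in input RNA. They were the 3 ligand genes Tgfb1, Tgfb2 and Tgfb3, the 4 receptor genes Tgfbr1, Tgfbr2, Tgfbr3 and Eng, and the 3 latent binding protein genes Ltbp1, Ltbp2 and Ltbp3. Members were chosen by symbol, and all 10 were found among the 13731 genes of the deposited count table. NONO is a nuclear protein that binds RNA and DNA, and the series asks which RNAs it binds in rat heart cells. RNA immunoprecipitation followed by sequencing compares the RNA that comes down with a protein with the RNA of the lysate. The 4 libraries were 2 inputs, labelled as cells given an empty vector and with no antibody, and 2 NONO IP libraries, labelled as anti-NONO precipitates of cells given NONO siRNA.

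TGF-beta is secreted in a latent form, in which its own propeptide stays wrapped around the ligand. Latent TGF-beta binding proteins tie that complex to fibrillin and fibronectin in the matrix, and integrins, proteases or thrombospondin release the ligand. The free ligand brings a type II receptor and a type I receptor together, which phosphorylate SMAD2 and SMAD3, and co-receptors such as betaglycan and endoglin present it. In heart fibroblasts the pathway is known for driving matrix production and the myofibroblast state.

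Gene counts summed to between 238776 and 279410 per library. The growth protocol describes rat cardiac fibroblasts while the titles name H9C2, a rat heart myoblast line. Of 12 fibroblast markers 11 were listed, and they held 7.81% and 7.82% of input counts and 7.30% and 7.34% of NONO IP counts, mostly as collagen reads; Pdgfra and Thy1 had at most 31 reads in any library. Of 10 skeletal myoblast markers only Des was listed, with 2 to 8 reads, and 3 of the 9 endothelial markers, of interest because endoglin is abundant in endothelium, were listed and came to 42 to 62 reads, nearly all of Flt1. Nono itself had 21 and 9 reads in the inputs against 3 and 3 in the NONO IP. Precipitation and siRNA coincide in the labels and cannot be told apart, and no control antibody library was analysed here. Nothing in the labels says that replicates were separate cultures, so the p-values reflect only spread among the 4 libraries, which may be technical. In such bulk libraries, fewer cells of a type and less RNA per cell cannot be told apart either.

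Levels of different genes were compared per length on the deposited RPKM scale (reads over gene length and library size). Ltbp2 was highest in the inputs, at 315.98 and 315.71 RPKM, which is rank 57 of all listed genes. Tgfb3 came next with 266.71 and 254.43 RPKM, at rank 60. These 2 genes stood far above the other members. Eng had 68.89 and 58.26 RPKM, Ltbp3 had 55.32 and 53.64, and Tgfb2 had 37.49 and 34.92. Tgfb1 (25.15 and 14.90 RPKM) and Ltbp1 (21.84 and 18.29 RPKM) overlapped and could not be ordered. Tgfbr2 had 14.45 and 12.31 RPKM. The type I receptor gene Tgfbr1 (2.28 and 2.36 RPKM) and the betaglycan gene Tgfbr3 (2.99 and 2.33 RPKM) were lowest, and they too overlapped.

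The library total behind the RPKM, estimated from the values per gene count, was 2.19 and 2.10 times that of Input 1 in the NONO IP. For Input 2 it was 1.01 times. This lowers the RPKM of every gene in the NONO IP, so levels were ordered within a group. The order was not the same in the NONO IP. There Tgfb3 was highest, with 109.22 and 123.84 RPKM, and Ltbp2 second, with 91.55 and 106.80 RPKM. Eng came after these 2 genes, at 22.21 and 22.44 RPKM, as in the inputs. Within a library, where scaling plays no part, the RPKM of Tgfb3 was 0.844 and 0.806 times that of Ltbp2 in the inputs and 1.19 and 1.16 times in the NONO IP. Ltbp3 (12.55 and 15.22 RPKM) lay above Tgfb2 in the inputs and overlapped it in the NONO IP (13.53 and 15.90 RPKM).

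**Figure D1:**
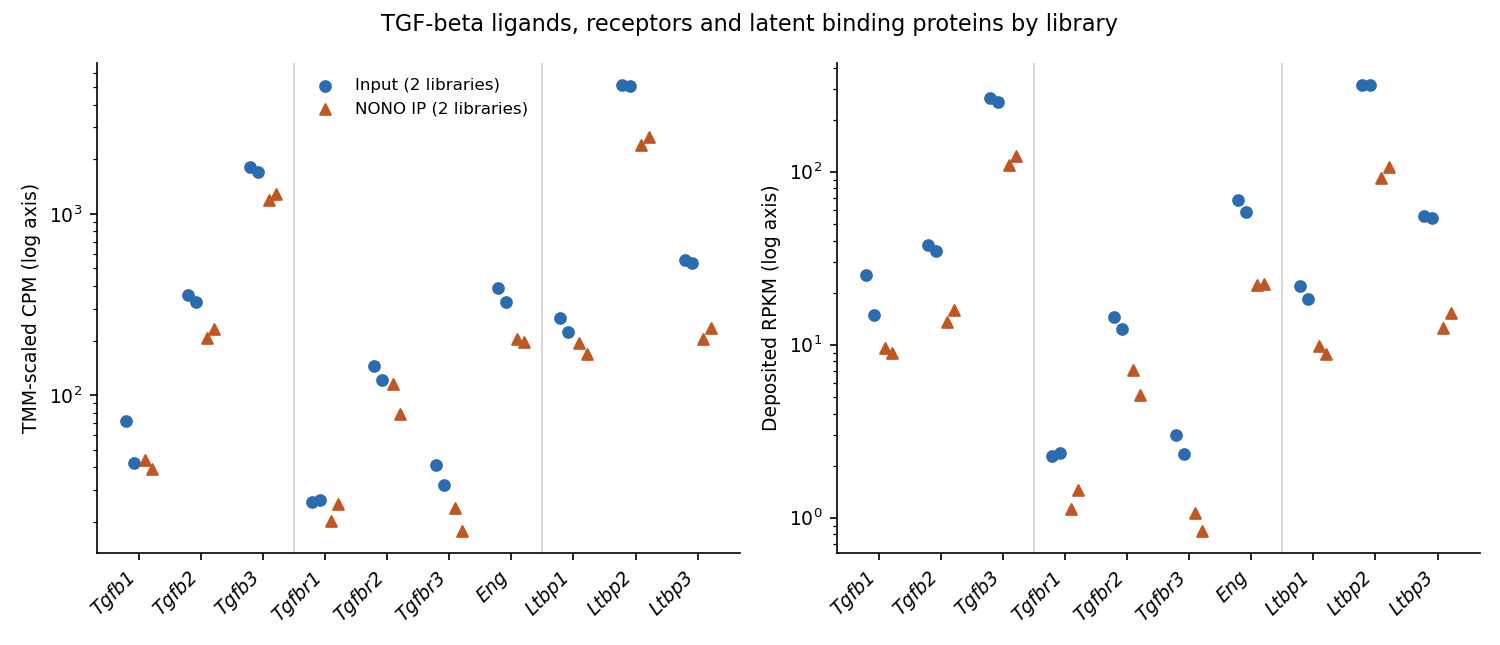
Level of each of the 10 members in each library, in TMM-scaled CPM (left) and deposited RPKM (right), both on log axes; circles are the 2 inputs, triangles the 2 NONO IP libraries, and grey lines part ligands, receptors and latent binding proteins. Ltbp2 and Tgfb3 lie far above the rest, and in CPM the groups overlap for Tgfb1 alone.

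Changes between groups were tested with edgeR's quasi-likelihood test over 2920 genes, on counts scaled with TMM, which puts the median log2 fold change of all tested genes at 0.02. Levels in CPM (counts scaled to a common library size) use the same TMM factors. Of the 10 members 8 were tested; Tgfbr1 and Tgfbr3 had too few reads. Ltbp2, Ltbp3, Eng, Tgfb2 and Tgfb3 were lower in the NONO IP at an adjusted p under 0.05, so 5 of 8 were lower and 0 higher. Of all tested genes 26.9% were lower and 29.8% higher by the same rule. These shares are not at like depth, since the tested members had a median of 134.5 input reads against 28 for all tested genes. The part of depth in the members' calls was not tested. The median log2 fold change of the 8 was −0.57.

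Among the latent binding proteins, Ltbp2, a fibrillin-associated microfibril protein that, unlike its relatives, is not known to carry latent TGF-beta, had by far the most reads. The inputs held 995 and 959 reads of it and the NONO IP libraries 706 and 747. Both NONO IP libraries thus held fewer reads of it, although they were the deeper ones. Its level went from 5100 ± 36.0 to 2530 ± 197 CPM (mean ± SD, n = 2 libraries). This is a log2 fold change of −1.01 (SE 0.08, edgeR adjusted p = 1.1e-08). Of all tested genes, 19.3% had a lower log2 fold change.

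Ltbp3, which helps TGF-beta to be secreted and is known for its part in bone and teeth, had 108 and 101 reads in the inputs against 60 and 66 in the NONO IP. The groups stood well apart, from 545 ± 15.5 to 219 ± 23.1 CPM. Its log2 fold change of −1.31 (SE 0.16, edgeR adjusted p = 3.59e-06) was the lowest among the members, with 12.7% of all tested genes lower.

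Ltbp1, an anchor of latent complexes in the matrix, had 52 and 42 reads in the inputs against 57 and 47 in the NONO IP, or 245 ± 32.3 and 180 ± 17.7 CPM. Both NONO IP libraries lay below both inputs, but the log2 fold change of −0.44 (SE 0.21, adjusted p = 0.0887) did not pass.

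Reads of 2 members in one library can be compared without any scaling between libraries, and this was done for the 12 pairs of members that share a role. The ratio of Ltbp1 to Ltbp3 reads was 0.481 and 0.416 in the inputs against 0.950 and 0.712 in the NONO IP, a 1.83-fold larger ratio (exact conditional 95% interval 1.27 to 2.66). The ratio of Ltbp1 to Ltbp2 was 0.0523 and 0.0438 against 0.0807 and 0.0629, 1.49-fold larger (1.11 to 2.005). For both pairs the 2 NONO IP libraries lay above both inputs, but this did not mark them out. The same held for Ltbp2 to Ltbp3, Tgfbr1 to Tgfbr3, Tgfbr1 to Eng, Tgfbr2 to Tgfbr3 and Tgfbr2 to Eng. For Tgfb2 to Tgfb3 they lay below both inputs. Only Ltbp1 to Ltbp3 and Ltbp1 to Ltbp2, 2 of 12 pairs, had an interval that left out 1. The intervals are not adjusted for the 12 pairs and cover counting error only. With 2 libraries against 2 no two-sided exact permutation p can go below 0.333. Ltbp2 to Ltbp3 gave 9.21 and 9.50 against 11.8 and 11.3, 1.23-fold larger (0.973 to 1.57). Across roles, the ratio of Tgfb3 to Ltbp2 reads went from 0.353 and 0.337 to 0.499 and 0.485, 1.42-fold larger (1.25 to 1.62), a pair picked after its values were seen.

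**Figure D2:**
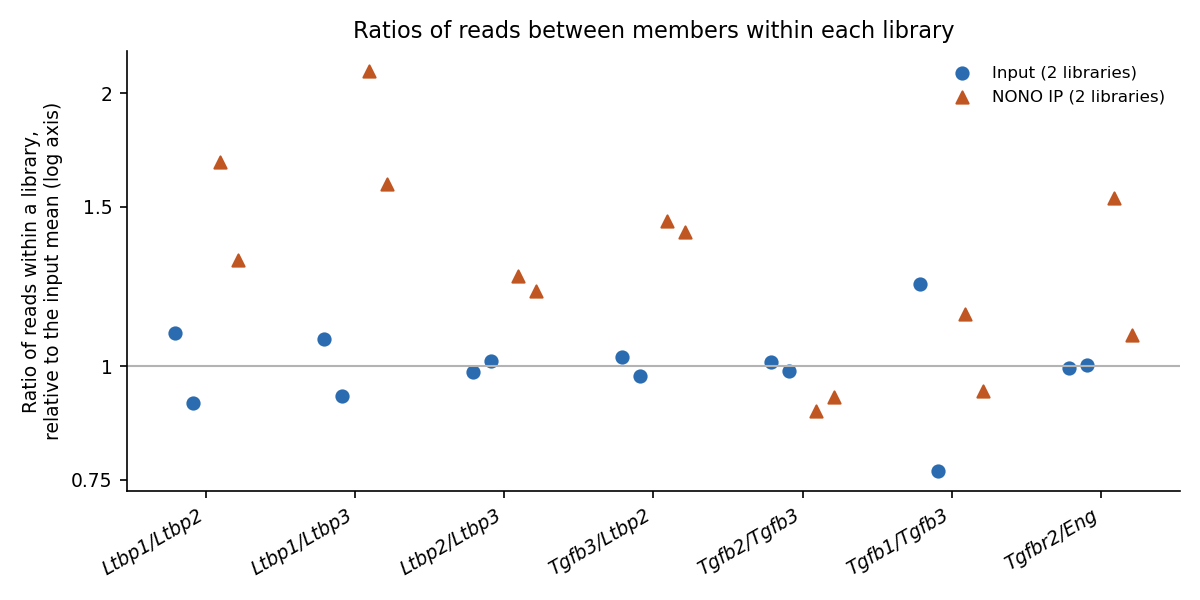
Ratio of the reads of 2 members within each library, divided by the mean ratio of the inputs, on a log axis; circles are inputs and triangles NONO IP libraries. The ratios of the NONO IP lie above both inputs for Ltbp1/Ltbp3, Ltbp1/Ltbp2, Ltbp2/Ltbp3, Tgfb3/Ltbp2 and Tgfbr2/Eng. They lie below both for Tgfb2/Tgfb3, whereas the Tgfb1/Tgfb3 ratios overlap.

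Among the ligands most reads were of Tgfb3. It made up 80.9% and 82.2% of ligand reads in the inputs (Wilson 95% intervals 76.9 to 84.3% and 78.1 to 85.7%) and 82.6% and 82.6% in the NONO IP, and the intervals of all 4 libraries overlapped. Tgfb3, the isoform linked to scarless healing and palate fusion, had 351 and 323 reads in the inputs against 352 and 362 in the NONO IP. Raw reads were close to equal, and scaled levels fell from 1759 ± 69.9 to 1243 ± 71.7 CPM without overlap. The fitted log2 fold change was −0.50 (SE 0.10), with an edgeR adjusted p of 0.000285.

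Tgfb2, an isoform needed for heart valve and septum development, had 69 and 62 reads in the inputs against 61 and 65 in the NONO IP. Its level fell from 342 ± 19.3 to 219 ± 18.1 CPM (log2 fold change −0.64, SE 0.18, edgeR adjusted p = 0.00688). That call ended without Input replicate 1 (adjusted p = 0.0592), without NONO IP replicate 1 (0.0680) and with DESeq2's Wald test (0.119). A snoRNA gene, LOC120096377, lies over Tgfb2 in RefSeq's annotation of GRCr8, and it had 0, 0, 1 and 3 reads. Tgfb1, the most studied isoform and the one usually tied to fibrosis, was barely read, with 14 and 8 against 13 and 11 reads. Its groups overlapped, at 57.2 ± 21.1 and 41.7 ± 3.34 CPM, and its log2 fold change of −0.46 (SE 0.42, adjusted p = 0.365) did not pass. It ranged from −0.05 without Input replicate 1 to −0.84 without Input replicate 2. The scaled count was 1.38-fold higher in the inputs with a 95% counting interval from 0.736 to 2.56.

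Of the receptors, Eng had the most reads. It encodes endoglin, a co-receptor of TGF-beta and BMP9 that is also present on fibroblasts. Its reads were 76 and 62 in the inputs against 60 and 55 in the NONO IP. All 4 libraries kept the groups apart, at 360 ± 44.8 and 200 ± 4.72 CPM, a log2 fold change of −0.85 (SE 0.19, edgeR adjusted p = 0.001). Eng was the 1 receptor gene of the 2 tested that passed.

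The signalling receptors were shallow. Tgfbr2, the type II kinase that binds the ligand first, had 28 and 23 reads in the inputs against 34 and 22 in the NONO IP (133 ± 15.9 and 96.9 ± 25.8 CPM). The log2 fold change of −0.45 (SE 0.29, adjusted p = 0.200) did not pass, and with 1 library left out it ranged from −0.15 (without NONO IP replicate 2) to −0.70 (without NONO IP replicate 1), with −0.35 and −0.63 without Input replicates 1 and 2. Tgfbr1, the type I kinase that phosphorylates SMAD2 and SMAD3, had 5 and 5 reads in the inputs against 6 and 7 in the NONO IP. Tgfbr3, whose product betaglycan presents Tgfb2 to the receptors, had 8 and 6 and then 7 and 5. The scaled counts were 1.16-fold higher in the inputs for Tgfbr1 (95% counting interval 0.453 to 2.85) and 1.75-fold for Tgfbr3 (0.752 to 4.15). Both intervals hold no change as well as a 2-fold higher count in the inputs, which could not be told apart at this depth. The interval of Tgfbr1 also holds a 2-fold higher count in the NONO IP. In a fit without a count filter, Tgfbr1 had a log2 fold change of 0.01 (SE 0.60, edgeR adjusted p = 0.990) and Tgfbr3 of −0.58 (SE 0.57, adjusted p = 0.658). That fit had its own TMM factors and put the 2920 genes of the main test at a median of 0.24, against 0.02 in the main test. Its values are thus not on the scale of the other log2 fold changes.

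In CPM, 7 of the 8 tested members had both NONO IP libraries below both inputs, Tgfb1 being the exception, where 37.3% of all tested genes did. How far members fell depended on scaling, since library totals put the median gene at 0.48 and log2(RPKM + 1) put the same 2920 genes at −0.54. With library totals Ltbp2 (−0.55, edgeR adjusted p = 9.98e-06) and Ltbp3 (−0.85, adjusted p = 0.000281) were still lower, so 2 members were called against 15.2% of all genes. Eng (−0.39, adjusted p = 0.0880), Tgfb2 (−0.18, adjusted p = 0.427) and Tgfb3 (−0.04, adjusted p = 0.743) then lost their calls, and Tgfb1, Tgfbr2 and Ltbp1 turned to values between 0.0011 and 0.02. With library totals 4 members had both NONO IP libraries below both inputs, against 25.8% of all tested genes. In RPKM all 8 did, against 56.0%. On log2(RPKM + 1), 6 members were lower, those 5 and Ltbp1 (−1.02, limma adjusted p = 0.0369), against 18.8% of the 7576 genes tested there. Relative to the median gene, all 8 members were below it under each scaling and each left-out library; with an offset for gene length 7 were, and Tgfb1, the shortest member at 0.301 times the median gene length, turned to 0.18. With that offset Ltbp1 was also lower (−0.71, edgeR adjusted p = 0.0150), so 6 members were called against 26.7% of all genes. In the fit with no count filter Ltbp2, Ltbp3 and Eng were lower, 3 of 10 members against 4.73% of all 13731 genes. Most of those 13731 genes had too few reads for the main test, so these shares are not at like depth. TMM was computed over all 13731 genes in that fit, which put the 2920 genes of the main test at a median of 0.24. Tgfb3 (−0.28, edgeR adjusted p = 0.0959) and Tgfb2 (−0.42, edgeR adjusted p = 0.204) were not called in that fit.

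**Figure D3:**
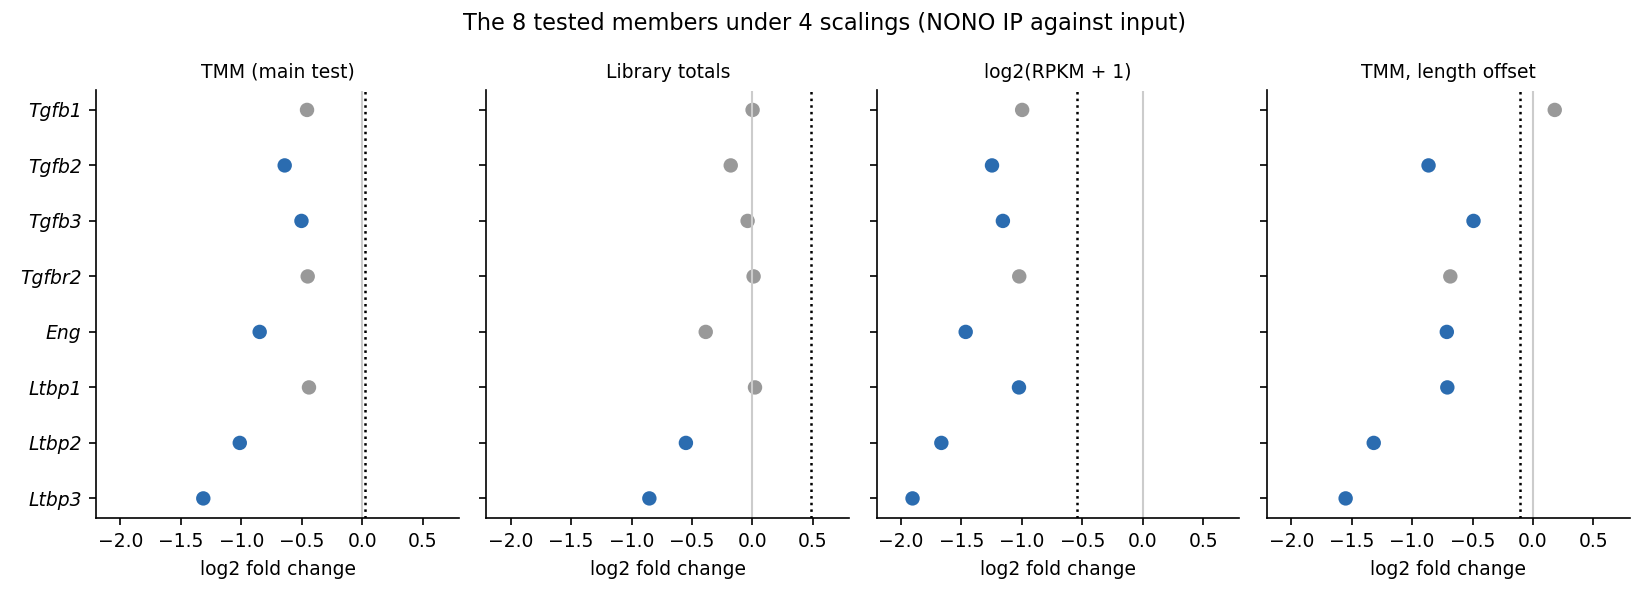
Log2 fold change of the 8 tested members under TMM, library totals, log2(RPKM + 1) and TMM with a length offset; blue points passed an adjusted p of 0.05, grey points did not, the dotted line is the median of the same 2920 genes and the solid line is 0. The points move with the dotted line and stay to its left, except Tgfb1 with the length offset.

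The other genes of the pathway were taken from lists assembled by function, with earlier results of these data known. Of all tested genes 26.9% were lower and 29.8% higher, or 15.2% lower with library totals, at a median of 28 input reads. Of 22 tested genes of the latent complex and its activation, 17 were lower and 0 higher, with a median of −1.02. These 22 had a median of 111 input reads, so the shares are not at like depth. Fn1, fibronectin, which large latent complexes need for deposition, fell by 1.82 on the log2 scale (SE 0.08, edgeR adjusted p = 6.05e-12). Fbn1, the fibrillin that holds them, changed by −1.38 (SE 0.09) and Thbs1, an activator of latent TGF-beta, by −1.33 (SE 0.07). All 22 stayed below the median gene under every scaling without a length offset, with 10 to 20 of them called lower. Without Input replicate 1, and likewise without NONO IP replicate 2, 21 of them were below it. Ltbp4, the family's other member, had 31 and 33 reads in the inputs against 17 and 19 in the NONO IP and changed by −1.41 (SE 0.29, adjusted p = 0.00053); it and the genes Acvr1b and Bmpr2 below were named after their values were seen.

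Traps of the ligand, secreted proteins that bind it or its relatives, had 5 tested genes, of which 3 were lower, or 1 with library totals. Fstl1 (−0.65, SE 0.09) and the secreted protease gene Htra1 (−1.10, SE 0.18) were among the 3, and Fstl1 lost its call with library totals (−0.19, adjusted p = 0.0922), while Bgn, the proteoglycan biglycan, was higher (0.25, SE 0.09, adjusted p = 0.0213). The direction of Bgn turned on the RPKM scales, at −0.41, and its call ended with DESeq2's Wald test (adjusted p = 0.187) and without either input (0.195 without replicate 1 and 0.353 without replicate 2). Response genes of TGF-beta were mostly lower, 19 of 25 with a median of −0.79 and 3 higher, or 10 lower and 4 higher with library totals. Of all tested genes 26.9% were lower, or 15.2% with library totals. The 25 had a median of 136 input reads against 28 for all tested genes. Postn, periostin, went from 73 and 60 reads to 11 and 11, Acta2, smooth muscle actin of myofibroblasts, changed by −1.40 (SE 0.12) and Col1a2, a type I collagen chain, by −0.75 (SE 0.06). The nuclear regulators Zeb1 and Hmga2 were among the 3 higher. Zeb1 had 8 and 5 reads in the inputs against 70 and 47 (2.56, SE 0.36), and Hmga2 had 4 and 7 against 50 and 47 (2.53, SE 0.37). All 3 had fewer input reads than the 23 reads that the least read of the tested genes had in all, so they were tested through their NONO IP reads, and their number is no measure of the list.

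Other ligands and receptors of the superfamily were sparse. Of 13 listed other ligand genes 3 were tested, and Gdf6 was lower (−0.60, SE 0.22, adjusted p = 0.0274), a call lost without Input replicate 2 (−0.34, adjusted p = 0.380), without NONO IP replicate 2 (−0.46, adjusted p = 0.112) and with the length offset (−0.03, adjusted p = 0.927). The Gdf6 call was also lost with library totals (−0.14, adjusted p = 0.614), in the DESeq2 Wald test (0.195), with no count filter (0.344), on log2(RPKM + 0.1) (0.0504) and on log2(RPKM + 1) with no filter (0.0859). Of 4 tested other receptor genes, Acvr1, a type I BMP and activin receptor, was higher, with 12 and 17 against 54 and 56 reads (1.33, SE 0.29, adjusted p = 0.000807). So was the type I activin receptor gene Acvr1b, with 2 and 3 against 21 and 29 reads (2.69, SE 0.53), a gene tested through its NONO IP reads in the same sense. Bmpr2, the type II BMP receptor gene, was lower (−1.78, SE 0.36). On the RPKM scales neither Acvr1 nor Acvr1b passed.

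Of 37 listed genes of signal transduction inside the cell 21 were tested, and of these 15 were higher and 0 lower. Of all tested genes 29.8% were higher and 26.9% lower. Of the 15, 8 had fewer input reads than the same 23 and were tested through their NONO IP reads, so the count is no measure of the list. This was not particular to the list, since 609 of the 871 higher genes over all tested genes also had fewer than 23 input reads. On counts scaled by TMM, by library totals or in DESeq2, 10 to 17 were higher; on log2(RPKM + 1) 6 were higher and 1 lower, or 2 and 0 with no filter on low values. Smad7, the inhibitory SMAD, had 104 and 116 against 529 and 422 reads (1.52, SE 0.12), and Ski, a repressor of SMAD targets, had 49 and 43 against 209 and 199 (1.56, SE 0.15). On log2(RPKM + 1) with no filter Smad7 (limma adjusted p = 0.0731), Ski (0.0605), Zeb1 (0.0859) and Hmga2 (0.0733) lost their calls, and Zeb1 also on log2(RPKM + 0.1) (0.0516). Smad1, one of the 8, went from 8 and 7 to 242 and 199 reads.

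**Figure D4:**
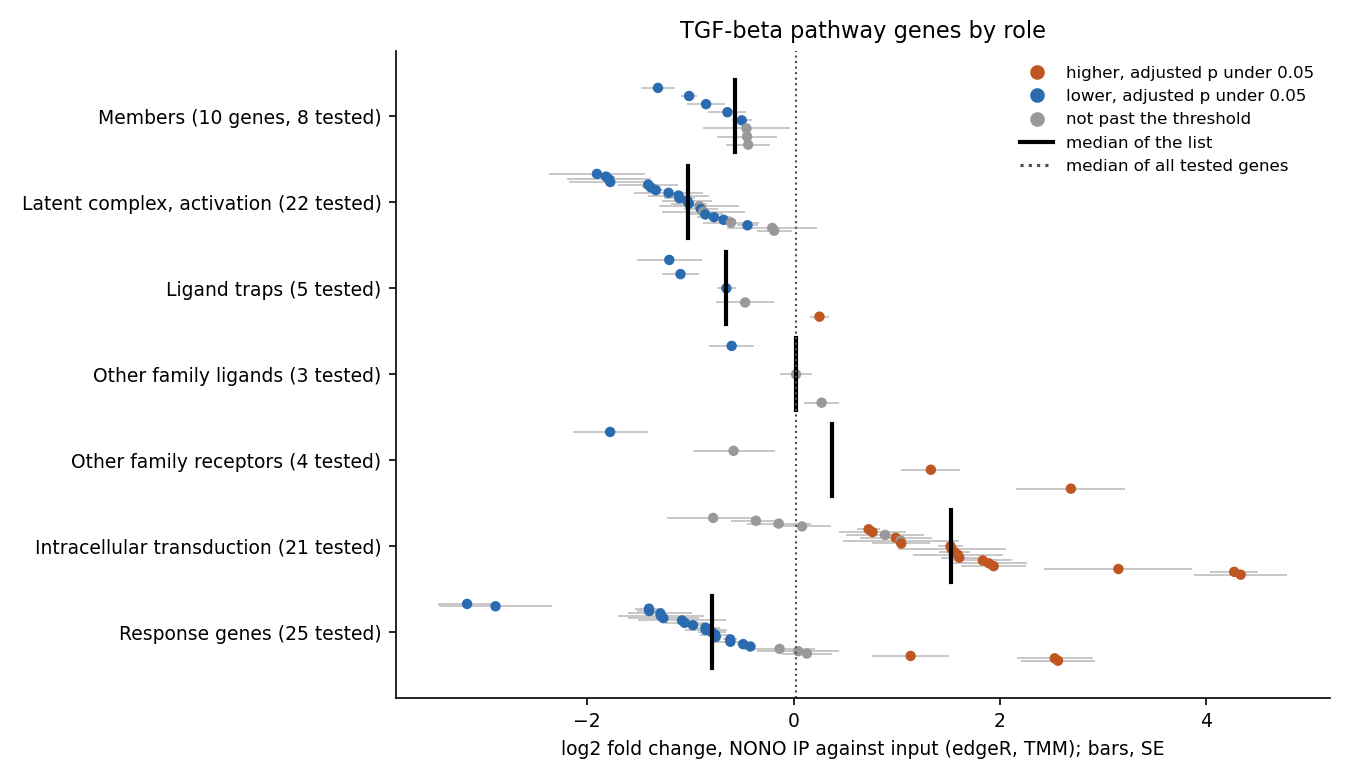
Log2 fold change (NONO IP against input, edgeR with TMM; bars are SE) of each tested member and each tested gene of 6 other lists of the pathway; black bars are list medians and the dotted line is the median of all tested genes. Members, the latent complex and most response genes lie left of the line, and most tested genes of intracellular transduction, a list that 8 genes entered through their NONO IP reads, lie right of it.

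Marker genes of other cell types were set beside the members. The summed level of smooth muscle markers was 5070 to 5172 CPM in the inputs and 2279 to 2290 in the NONO IP, with 7 of 7 tested markers lower and 2 of them, Acta2 and Tagln, also in the response list. Fibroblast markers came to 98814 to 100391 against 69104 to 69200 CPM, with 6 of 8 lower and 1 higher, where 26.9% and 29.8% of all tested genes were. Among the 6 were Col1a1, Col1a2, Col3a1 and Postn, which are also in the response list. Most of the summed level was of the collagens. The summed level of endothelial markers was 216 to 233 against 210 to 221 CPM, and Pecam1 and Cdh5 were not found by symbol. Cardiomyocyte markers came to 278 to 376 against 281 to 297 CPM, with 2 of 3 tested markers lower. Tnnt2 held 16 and 39 of their 54 and 71 reads in the inputs, and 64 and 59 of their 83 and 83 in the NONO IP. The macrophage and leukocyte markers, none of them tested, had 14 and 14 reads in the inputs against 5 and 1 in the NONO IP (72.1 and 74.1 against 16.9 and 3.57 CPM), and Des, the 1 listed myoblast marker, had 41.2 and 37.0 against 6.77 and 14.3 CPM. The part of any of these in the members' values was not tested.

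The pattern of Ltbp2 was closest to that of Gas6, Calu and Actn4 among 418 other genes with a mean of at least 50 counts. Likeness was the Euclidean distance between log2 CPM values centred on each gene's mean over the 4 libraries, 0.0664 for Gas6, 0.0982 for Calu and 0.112 for Actn4. Their log2 fold changes were −1.005, −0.98 and −0.97; over 4 libraries in 2 groups this mostly ranks genes by the size of their change. Ltbp2, Tgfb3 and Ltbp1 are all on chromosome 6 in the deposited table, Tgfb1 and Ltbp3 on chromosome 1, Eng on 3, Tgfbr1 on 5, Tgfbr2 on 8, Tgfb2 on 13 and Tgfbr3 on 14. By RefSeq's annotation of GRCr8, 32 genes lie between Ltbp2 and Tgfb3.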

How the data were processed

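Gene-level tables of 4 RIP-seq libraries (2 Input, 2 NONO IP; groups and replicate numbers from the titles) were analysed. Deposited counts are raw whole reads of each gene, and the deposited RPKM values were scaled by the authors to a library total that is not the gene count total (tested on the values). The submitters' processing notes name HISAT2, HOMER and the build mRatBN7.2 without a role. The counting program, its strand setting and the annotation are not stated in the sources used here.

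The main test was edgeR 4.0.16 (R 4.3.3), quasi-likelihood with TMM and filterByExpr, which kept 2920 genes with 91.1% of counts; p-values were adjusted by Benjamini-Hochberg over all of them, with a threshold of 0.05. SE is the log2 fold change over the root of F. CPM are counts over the TMM-scaled total of the tested genes. Alternatives used DESeq2 1.42.0, limma 3.58.1 on log2(RPKM + 1) and log2(RPKM + 0.1), library totals, no filter, a loess length offset (span 0.5, lengths relative to the median gene from counts over RPKM), a replicate block and each library left out. The chi-square per degree of freedom between replicates was 1.12 (Input) and 1.42 (NONO IP).

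Members and lists were chosen with earlier results of these data known. Besides the members, the text names from each list up to 3 genes per direction with the smallest adjusted p and a mean of at least 25 counts. Reads carry no molecular identifiers, so intervals cover counting error only.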

Additional observations from a re-analysis of the deposited data

How the results depend on the processing

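Of the 786 genes lower and 871 higher over all tested genes, library totals gave 444 lower, DESeq2's Wald test 423 lower and 453 higher, and log2(RPKM + 1) 1425 lower and 393 higher. There were 348 higher on log2(RPKM + 0.1) and 132 on log2(RPKM + 1) with no filter on low values. Higher genes made up 52.6% of calls in the main test, 73.3% with library totals, 64.5% with no count filter, 44.3% with the length offset, and 21.6%, 23.3% and 18.9% on the RPKM scales. The number of lower members, 5, was 2 with library totals and 3 with no count filter (Ltbp2, Ltbp3 and Eng), and 4 to 5 with 1 library left out. Among the other pathway genes 41 were lower, against 22 with library totals, and 21 higher, against 8, 7 and 2 on the RPKM scales. Directions turned for Tgfb1 (0.0011 with library totals, 0.18 with the length offset without and with the block), and for Tgfbr2 (0.0095) and Ltbp1 (0.021) with library totals. They also turned for Bgn (−0.41 on each RPKM scale) and Tgfbr1 (−0.55, −0.82 and −0.55 on the RPKM scales). The value of Tgfbr1 set against these was 0.01 with no count filter, where the genes of the main test had a median of 0.24. The cause was not tested. With the replicate number as a block, 870 genes were higher and 806 lower, and 5 members lower with none changing its call; length offset and replicate block together gave 7 lower members, and 812 lower of all 2920 tested genes, with Tgfbr2 called at −0.69 (adjusted p = 0.0470). Libraries of 1 number share only that number: their deviations from the group means correlated at 0.0508. Depth limits Tgfb1, Tgfbr1 and Tgfbr3 most, with at most 14 reads in any library.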
